A study of Mus musculus with 24 samples.

Results

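The FOXO factors and the receptors and adaptors they are tied to by feedback were followed as 9 genes, taken by name from the 55487 genes of the deposited table: Foxo1, Foxo3 and Foxo4, the insulin receptor Insr, the insulin-like growth factor receptor Igf1r, the receptor substrates Irs1 and Irs2, the neuregulin receptor Erbb3, and Pik3r1, the main regulatory subunit of class I phosphoinositide 3-kinase (PI3K). All 9 were found and all 9 passed the filter on low counts, which 15828 genes passed. FOXO proteins are forkhead transcription factors that AKT phosphorylates when insulin or growth factors activate PI3K, after which 14-3-3 proteins hold them outside the nucleus. When AKT activity falls they return to the nucleus, where they are known to raise transcription of Insr, Irs2 and Erbb3, so that a cell with a weak insulin signal makes more of the proteins that receive it. MTOR sits on the same path, since 1 of its complexes phosphorylates AKT and the other restrains receptor signalling through the IRS proteins.

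Poly(A) RNA of mouse embryonic fibroblasts (MEFs) was sequenced in 24 libraries, 4 in each of 6 groups. The cells were wild type (WT) or labelled AMPK KO, which the study's methods describe as lacking both genes for the catalytic subunits of AMP-activated protein kinase, Prkaa1 and Prkaa2. Cells of each genotype received the vehicle DMSO, MK-8722, which activates AMPK directly, or torin1, which inhibits the kinase MTOR in both of its complexes. The labels give neither dose nor time, and the number of cell lines behind each genotype is not given in the sources used here. Each group held 1 library from each of 4 passages, 12 to 15 for WT cells and 16 to 19 for AMPK KO cells, so genotype and passage cannot be told apart. Nothing in the labels says that libraries of a group came from separately established cultures, and p-values therefore measure the spread between these libraries, which may in part be technical.

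The libraries held 26900240 to 34192685 estimated counts and RNA integrity numbers were 9.7 to 10. No label names separate batches, so values within batches could not be formed. The paper's methods mention removal of a batch effect but do not say what the batches were. Of 9 fibroblast markers, 9 averaged at least 1 CPM, the count scaled to a common library total, in each WT group and 8 in each AMPK KO group, with summed levels of 12245 to 18215 CPM in WT libraries and 5659 to 7583 CPM in AMPK KO libraries. No other marker list summed to more than 6.45 CPM in any library, and Tyr and Ttr had no count in any. In DMSO, Prkaa1 was measured at 82.6, 78, 81.6 and 81.5 CPM in WT and at 66.9, 70.4, 73.3 and 73 CPM in the libraries labelled AMPK KO (log2 fold change -0.19, edgeR adjusted p = 0.001, under the fold threshold). Prkaa2 was at 5.44, 3.22, 4.58 and 5.71 CPM and at 2.58, 3.43, 4.48 and 2.34 CPM (-0.56, adjusted p = 0.015), which overlapped, and its call was lost without WT DMSO replicate 4 (-0.47) or AMPK KO DMSO replicate 4 (-0.44) and with scaling by totals alone (-0.42). Which exons the knockout alleles lack is not given in the sources used here, so these whole-gene counts do not check the genotype label, and AMPK KO is used as the label gives it. Changes were tested with edgeR's quasi-likelihood test and Benjamini-Hochberg adjustment over all 15828 genes, and called means an adjusted p below 0.05 together with at least a 1.2-fold change. A change in these bulk samples may come from fewer cells of a type or from less RNA per cell, which cannot be told apart.

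**Figure D1:**
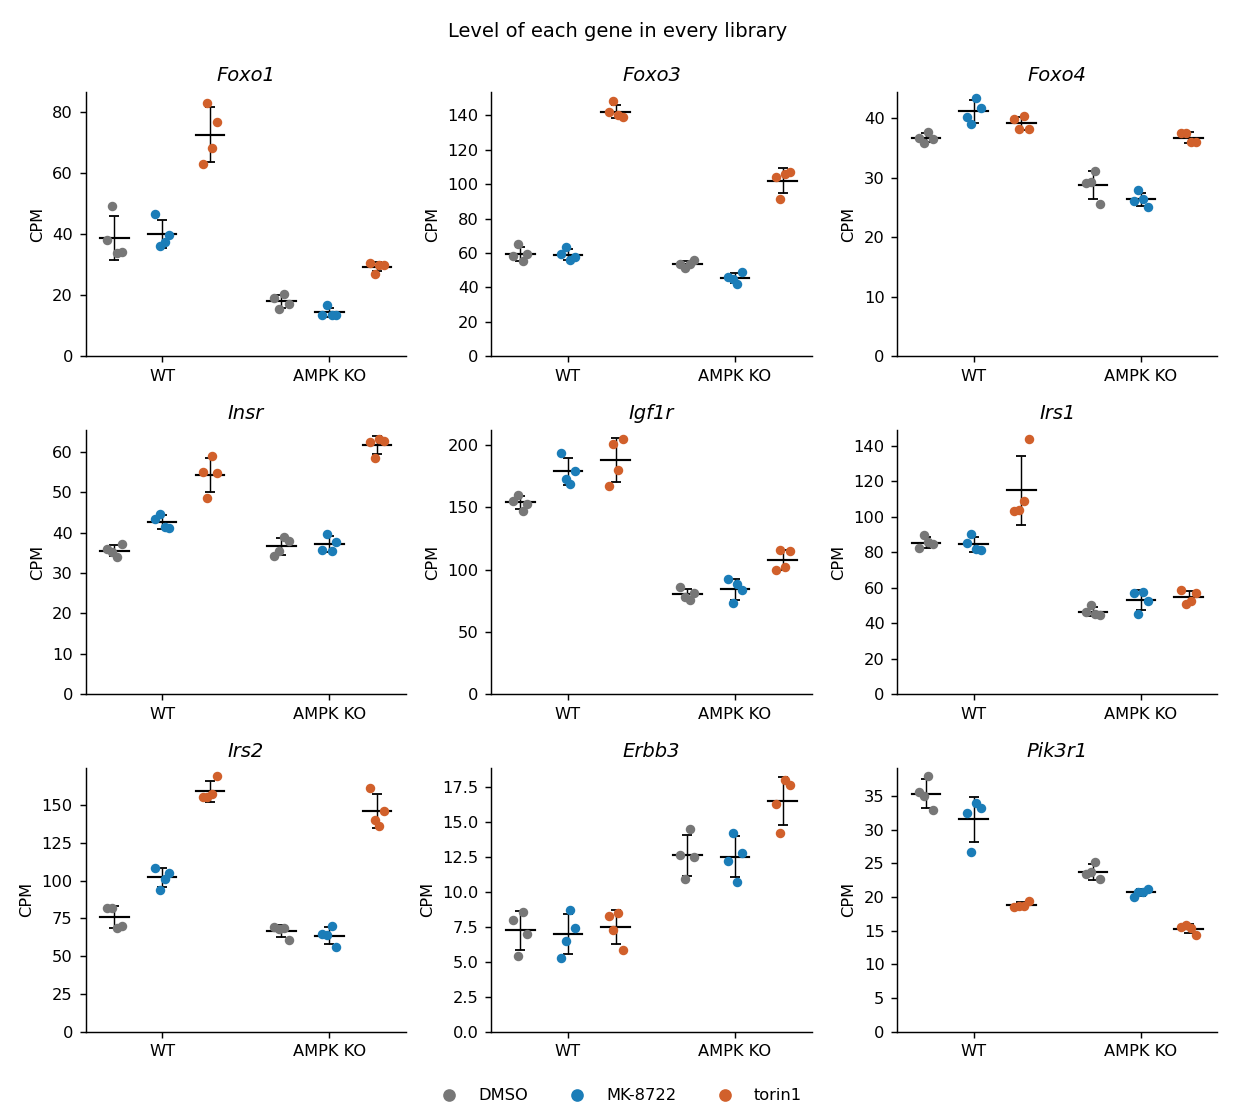
Level of each gene in CPM (vertical axes, starting at 0) in every library, by genotype and treatment. Each point is 1 library, the long horizontal bar is the mean of 4 libraries and the whiskers show 1 SD. For Foxo3 the 4 WT torin1 libraries lie at 139 to 148 CPM and all other WT libraries at 55.4 to 65.1 CPM, and Pik3r1 is the gene that is lower under torin1 in both genotypes.

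MTOR inhibition in WT cells raised Foxo1, Foxo3, Insr, Igf1r, Irs1 and Irs2 and lowered Pik3r1, so that 7 of the 9 genes were called, against 47.6% of all genes tested. The 6 that rose compare with 26.6% of all genes called higher. Foxo3 rose most, 2.39-fold, and Irs2 rose 2.1-fold, whereas Foxo4 and Erbb3 did not pass the test. The median log2 fold change of the 9 genes was 0.43 and that of all genes tested 0.04. Of all genes called in this comparison 55.8% were higher, and this share was 67.5% when libraries were scaled by their totals alone and 44.5% after an offset for GC content and transcript length, and the median of all genes was 0.14 under the first of these.

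Foxo3 (ENSMUSG00000048756, chromosome 10, 42181841 to 42276755, minus strand, GRCm38) encodes the FOXO factor best known for stress resistance and autophagy genes. In WT cells its level was 58, 65.1, 55.4 and 59.3 CPM in the 4 DMSO libraries and 142, 148, 140 and 139 CPM in the 4 torin1 libraries. The groups were far apart, and the log2 fold change was 1.26 (SE 0.0558, edgeR quasi-likelihood adjusted p = 1.6e-14).

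Foxo1 (ENSMUSG00000044167, chromosome 3, 52268336 to 52353221, plus strand) is the FOXO factor that carries much of insulin's control of metabolic genes. It was measured at 38.2, 49.2, 33.9 and 34.2 CPM with DMSO and at 63, 83.1, 68.2 and 76.7 CPM with torin1 in WT cells. Every torin1 library exceeded every DMSO library, although replicates spread more widely than for Foxo3, and the log2 fold change was 0.91 (edgeR SE 0.11, adjusted p = 1.5e-07).

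Foxo4 (ENSMUSG00000042903, chromosome X, 101254528 to 101260873, plus strand) encodes a shorter member of the same family. The level of Foxo4 in WT cells was 36.8, 35.9, 37.8 and 36.6 CPM with DMSO and 39.9, 38.3, 40.4 and 38.2 CPM with torin1. These libraries did not overlap, yet the shift was small, with a log2 fold change of 0.09 (95% interval 0.00 to 0.19) that did not pass the test (edgeR adjusted p = 0.11) and that was -0.04 after the offset for GC content and length.

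Among the receptors, Insr (ENSMUSG00000005534, chromosome 8, 3122061 to 3279617, minus strand) rose more than Igf1r (ENSMUSG00000005533, chromosome 7, 67952827 to 68233668, plus strand). Insr was measured at 35.9, 35.1, 33.9 and 37.1 CPM with DMSO and at 55, 48.6, 58.9 and 54.8 CPM with torin1 in WT cells. No torin1 library came down to the range of the DMSO libraries, and the log2 fold change was 0.61 (edgeR SE 0.0548, adjusted p = 1.1e-09).

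Igf1r, whose product binds insulin-like growth factors with high affinity, was measured at 155, 160, 147 and 153 CPM with DMSO and at 167, 201, 180 and 205 CPM with torin1 in WT cells. The groups did not overlap and the log2 fold change was 0.29 (edgeR SE 0.0697, adjusted p = 8.6e-04). This was close to the fold threshold: the call was lost without WT DMSO replicate 3 (0.26), WT torin1 replicate 2 (0.25) or WT torin1 replicate 4 (0.24), and after the offset for GC content and length (0.11).

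Irs1 and Irs2 are the docking proteins through which both receptors recruit PI3K, and Irs2 is the one known as a FOXO target. Irs2 (ENSMUSG00000038894, chromosome 8, 10984681 to 11008458, minus strand) was measured at 81.9, 82.1, 68.7 and 70.2 CPM with DMSO and at 155, 155, 157 and 169 CPM with torin1 in WT cells. The lowest torin1 library lay well above the highest DMSO library, with a log2 fold change of 1.07 (edgeR SE 0.0696, adjusted p = 5.4e-12).

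Irs1 (ENSMUSG00000055980, chromosome 1, 82233101 to 82291416, minus strand) was measured at 82.2, 89.7, 85.6 and 84.4 CPM with DMSO and at 103, 104, 109 and 144 CPM with torin1 in WT cells. The groups did not overlap, but 1 torin1 library stood above the others. Its log2 fold change was 0.43 (edgeR SE 0.0854, adjusted p = 1.4e-04), and 0.29 without that library, replicate 4, and 0.26 with the call lost after the offset for GC content and length.

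The promoters of these 2 substrates are shown because, of the 6 genes with an entry in RefSeq's promoter table, they were the ones that held an E-box, the word CACGTG that basic helix-loop-helix factors such as TFEB and TFE3 bind. Each of the 7 entries ran from 250 bases before to 50 bases after the annotated start on GRCm38.p6. Windows of 60 bases around the E-box are given 5′ to 3′ on the gene's own strand, with the E-box and the word TGTTTTG in capitals (Irs1 chr1:82291519-82291578, Irs2 chr8:11008938-11008997, both minus strand).
Irs1: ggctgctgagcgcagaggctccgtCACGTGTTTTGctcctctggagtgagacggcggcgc
Irs2: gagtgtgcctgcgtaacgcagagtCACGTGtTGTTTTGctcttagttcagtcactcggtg
The first base of the E-box lay 115 bases before the RefSeq start of Irs1 (position 82291439) and 44 bases before that of Irs2 (position 11008929). By the gene coordinates given earlier, Irs1 begins at 82291416 and Irs2 at 11008458, further downstream, so these distances hold for the RefSeq starts alone. TGTTTTG, the core of the insulin response element of some FOXO target genes, was added to the search after these sequences had been seen. It began 4 bases after the first base of the E-box in Irs1, so that the words share 2 bases, and 7 bases after it in Irs2. The Irs1 promoter held a second copy 32 bases before the start, away from the E-box. On either strand, CACGTG was found in 7.15% of the 32851 promoters in the table, TGTTTTG in 6.28% and both in 0.408%. The forkhead word TGTTTAC, found in 3.65% of all promoters, was in none of the 7 entries, and Insr, Foxo4 and Erbb3 have no entry in the table. A match describes letters in these windows and is no evidence of binding.

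Erbb3 (ENSMUSG00000018166, chromosome 10, 128567523 to 128589652, minus strand), a receptor with a weak kinase of its own that recruits PI3K strongly once paired with other ERBB receptors, was the least abundant of the 9 in the WT groups. It was measured at 8, 5.41, 8.57 and 6.97 CPM with DMSO and at 8.3, 7.3, 8.51 and 5.82 CPM with torin1 in WT cells. These ranges overlapped, and the log2 fold change of 0.05 (95% interval -0.25 to 0.34) did not pass the test (edgeR adjusted p = 0.81). At 148 to 288 counts a library in these groups, Erbb3 was measured with less precision than the other genes.

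Pik3r1 (ENSMUSG00000041417, chromosome 13, 101680563 to 101768217, minus strand) moved against the rest. Its level was 35.5, 34.9, 38 and 32.9 CPM with DMSO and 18.5, 18.6, 18.6 and 19.4 CPM with torin1 in WT cells. The torin1 libraries were tightly grouped below all DMSO libraries, with a log2 fold change of -0.91 (edgeR SE 0.0619, adjusted p = 1.1e-11).

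**Figure D2:**
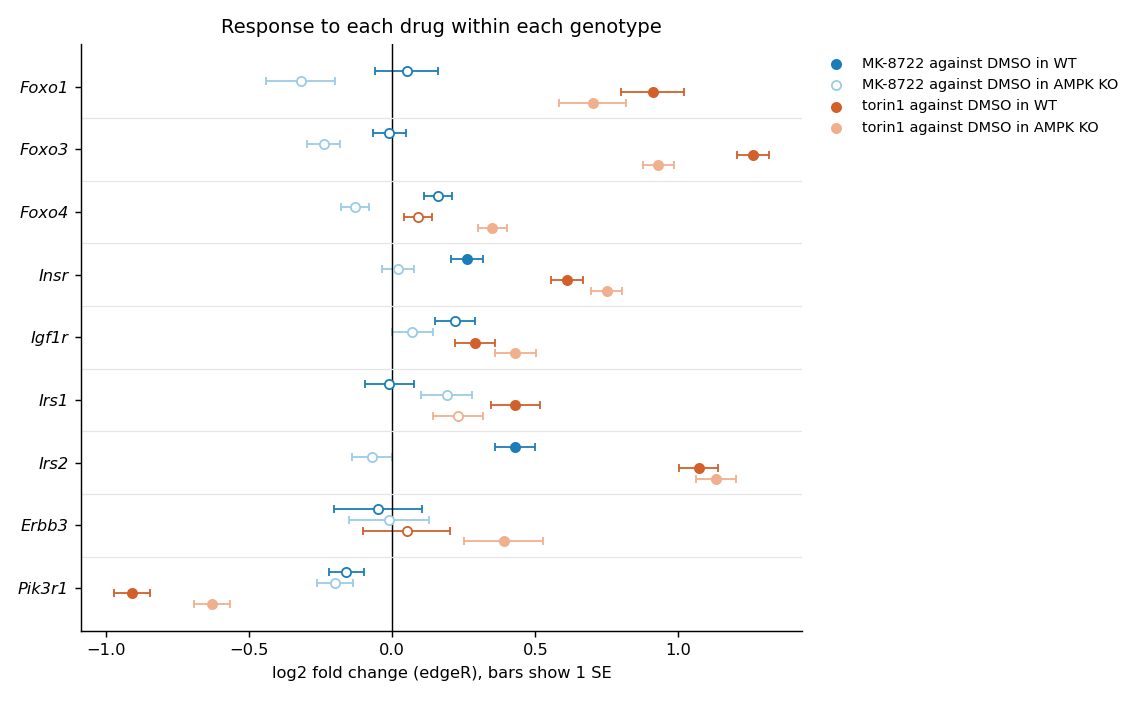
Log2 fold change of each gene (horizontal axis, edgeR, bars show 1 SE) for MK-8722 and torin1 against DMSO within WT and within AMPK KO cells. Filled points were called and open points were not. With torin1 both genotypes lie to the right for Foxo1, Foxo3, Insr, Igf1r and Irs2 and to the left for Pik3r1, and with MK-8722 only Insr and Irs2 in WT are filled.

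The same drug in AMPK KO cells called 8 of the 9 genes, 7 higher and Pik3r1 lower, against 43.5% of all genes called and 25.9% called higher. The median of the 9 log2 fold changes was 0.43, and 0.06 for all genes. Foxo3 went from 53.4, 51.3, 53.6 and 56.2 CPM with DMSO to 104, 91.6, 106 and 107 CPM with torin1, a log2 fold change of 0.93 (edgeR SE 0.0557, adjusted p = 3.9e-12). Irs2 went from 69.1, 68.1, 68.3 and 60.5 CPM to 161, 140, 136 and 146 CPM, which was 1.13 on the log2 scale (edgeR SE 0.0697, adjusted p = 4.9e-12). For both genes every torin1 library lay clear of every DMSO library.

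Insr in AMPK KO cells was measured at 34.2, 35.5, 38.9 and 37.8 CPM with DMSO and at 62.5, 58.4, 63.1 and 62.7 CPM with torin1, a log2 fold change of 0.75 (edgeR SE 0.0543, adjusted p = 5.6e-11). Foxo1 rose from 19.2, 15.4, 20.3 and 17.3 CPM to 30.5, 27.1, 29.9 and 30.1 CPM, or by 0.70 on the log2 scale (edgeR SE 0.116, adjusted p = 1.6e-05). Neither gene had overlapping groups. Pik3r1 fell from 23.4, 23.7, 25.2 and 22.6 CPM to 15.5, 15.9, 15.4 and 14.4 CPM, a log2 fold change of -0.63 (edgeR SE 0.063, adjusted p = 1.0e-08).

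Igf1r rose from a range of 75.8 to 86.3 CPM with DMSO to 100 to 116 CPM with torin1 in AMPK KO cells (log2 fold change 0.43, edgeR SE 0.0709, adjusted p = 1.6e-05). Foxo4 was called here, at 25.6 to 31.2 CPM with DMSO and 36 to 37.6 CPM with torin1 (log2 fold change 0.35, edgeR SE 0.0494, adjusted p = 1.9e-06), and this call was lost without AMPK KO DMSO replicate 4 (0.25). Erbb3 was called at 12.6, 10.9, 14.5 and 12.5 CPM with DMSO and 16.3, 14.2, 18 and 17.6 CPM with torin1, which overlapped (log2 fold change 0.39, edgeR SE 0.138, adjusted p = 0.018). The call on Erbb3 was lost without AMPK KO DMSO replicate 2 (0.32) or replicate 4 (0.33) and without AMPK KO torin1 replicate 3 (0.34) or replicate 4 (0.31). In the same comparison the 5 epithelial markers summed to 3.04 to 4.55 CPM with DMSO and 5.38 to 6.45 CPM with torin1, with 2 averaging at least 1 CPM in both groups and Krt5 without a count, and the 4 endothelial markers to 0.589 to 0.87 CPM and 1.62 to 1.95 CPM, with 0 and 1 at that level and Tie1 without a count. Sums were higher without overlap for Schwann and melanocyte markers as well (0.939 to 1.2 and 1.59 to 2.19 CPM). So were those of skeletal muscle (1.38 to 1.9 and 2.46 to 3.07 CPM) and fibroblast markers (5707 to 6387 and 6906 to 7583 CPM). Adipocyte, hepatocyte and leukocyte sums overlapped. The part of these lists in the result was not tested. The offset for GC content and length ended the calls of Foxo4 (0.24), Igf1r (0.22) and Erbb3 (0.23). Irs1, at 44.4 to 50.4 CPM with DMSO and 50.7 to 58.5 CPM with torin1, had an adjusted p of 0.027 in edgeR but stayed under the fold threshold, with a log2 fold change of 0.23 (95% interval 0.06 to 0.40), and it was called without AMPK KO DMSO replicate 2 (0.27) and with scaling by totals alone (0.30), while the offset for GC content and length left 0.03 (adjusted p = 0.78).

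Whether torin1 acted differently in the genotypes was tested as an interaction, the fold change in AMPK KO over that in WT. Of the 9 genes 2 were called, against 7.07% of all genes. The rise of Foxo3 was smaller in AMPK KO cells, by 0.33 on the log2 scale (interaction -0.33, edgeR SE 0.0782, adjusted p = 0.0089), and the call held when any of the 16 libraries was left out, at -0.42 to -0.30. The fall of Pik3r1 was smaller as well, with an interaction of 0.28 (edgeR SE 0.0881, adjusted p = 0.046), but it did not stay called in 14 of the 16 fits without 1 library or under 10 of 14 other settings, with values of 0.18 to 0.32 over the 16 fits. It was kept without WT DMSO replicate 4 or WT torin1 replicate 4. Foxo4 had an interaction of 0.26 (edgeR SE 0.0697, adjusted p = 0.02), just under the fold threshold, and was called without WT DMSO replicate 2 or 4 or AMPK KO DMSO replicate 1 or 2 (0.27 each). Erbb3 had an interaction of 0.34 (edgeR adjusted p = 0.32), and it was called with passage as a block (0.34, adjusted p = 0.048). For Irs2 the interaction was 0.06, with a 95% interval of -0.13 to 0.25, and for Insr 0.14, with an interval of -0.01 to 0.29.

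Activation of AMPK with MK-8722 in WT cells called 2 of the 9 genes, Irs2 and Insr, both higher, against 15.7% of all genes. The median of the 9 log2 fold changes was 0.05, beside 0.00 for all genes. Irs2 was measured at 108, 93.8, 101 and 105 CPM with MK-8722, above every DMSO library given earlier, with a log2 fold change of 0.43 (edgeR SE 0.0697, adjusted p = 5.3e-05). Leaving out any of the 8 libraries kept this call, at 0.37 to 0.47.

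Insr with MK-8722 in WT was measured at 43.4, 44.7, 41.4 and 41.1 CPM, again without overlap with DMSO, and its log2 fold change of 0.26 (edgeR SE 0.0554, adjusted p = 7.8e-04) sat at the fold threshold. The call on Insr was lost without WT DMSO replicate 1 (0.25), 2 (0.24) or 3 (0.23), and without WT MK-8722 replicate 1 (0.26) or 2 (0.24), while its adjusted p was at most 0.006 in all of these fits. Foxo4 (log2 fold change 0.16, edgeR adjusted p = 0.015), Igf1r (0.22, adjusted p = 0.023) and Pik3r1 (-0.16, adjusted p = 0.049) passed the adjusted p but not the fold threshold. Foxo1 (95% interval -0.17 to 0.26), Foxo3 (-0.12 to 0.10), Irs1 (-0.18 to 0.15) and Erbb3 (-0.35 to 0.25) did not pass either. MK-8722 and torin1 were each set against the same DMSO libraries, so their values are given side by side and not as separate evidence.

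None of the 9 genes was called with MK-8722 in AMPK KO cells by edgeR, where 1.56% of all genes were, and DESeq2 called 0 as well, although 5 had an unadjusted p below 0.05 in edgeR. Those 5 were Foxo1, Foxo3, Foxo4, Pik3r1 and Irs1. Over all genes, 2610 of 15828 had an unadjusted p below 0.05 in edgeR. Foxo3 was measured at 46, 44.9, 41.8 and 49.1 CPM, below all 4 DMSO libraries, with a log2 fold change of -0.24 (95% interval -0.35 to -0.13, edgeR adjusted p = 0.024) that missed the fold threshold, and it was called without AMPK KO MK-8722 replicate 4 (-0.28). For Foxo1, at 13.7, 16.8, 13.7 and 13.5 CPM, the groups overlapped and the log2 fold change was -0.32 (95% interval -0.56 to -0.09, edgeR adjusted p = 0.16). Foxo1 was called when passage entered the fit as a block (-0.32, edgeR adjusted p = 0.0047), and its 2 genotypes then differed in response as well (interaction -0.38, adjusted p = 0.0046). Irs2 was at 64.4, 64, 69.6 and 56.2 CPM (log2 fold change -0.07, 95% interval -0.20 to 0.07) and Insr at 35.8, 39.7, 35.5 and 37.6 CPM (0.02, 95% interval -0.09 to 0.13), and both overlapped their DMSO libraries.

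The response to MK-8722 differed between genotypes for 2 of the 9 genes, against 12.8% of all genes. For Irs2 the interaction was -0.49 (edgeR SE 0.0989, adjusted p = 0.0012), the higher level in WT having no counterpart past the test in AMPK KO, and it stayed called without any 1 of 16 libraries at -0.54 to -0.44. For Foxo4 it was -0.29 (edgeR SE 0.0703, adjusted p = 0.0054), with fold changes of opposite sign that were not themselves called in either genotype, and this call was lost without AMPK KO DMSO replicate 3 (-0.26). Insr (-0.24, edgeR adjusted p = 0.033) and Foxo3 (-0.23, edgeR adjusted p = 0.048) passed the adjusted p without reaching the fold threshold. Insr was called with an offset for transcript length (-0.48, edgeR adjusted p = 0.04), with scaling by totals alone (-0.27), and without WT DMSO replicate 4 (-0.27), AMPK KO DMSO replicate 1 (-0.28) or AMPK KO MK-8722 replicate 2 (-0.26), Foxo3 without AMPK KO MK-8722 replicate 4 (-0.27), and Foxo1 (-0.37, edgeR adjusted p = 0.13) without WT DMSO replicate 2 (-0.49).

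Set against MK-8722 directly in WT cells, torin1 gave a higher level of Foxo3 (log2 fold change 1.27), Foxo1 (0.86), Irs2 (0.64), Irs1 (0.44) and Insr (0.35) and a lower level of Pik3r1 (-0.75). These were 6 called of 9, against 45.7% of all genes, with edgeR adjusted p between 1.8e-14 for Foxo3 and 1.1e-04 for Irs1. Irs2 and Insr each formed 3 separate levels in WT. Irs2 was at 68.7 to 82.1 CPM with DMSO, 93.8 to 108 CPM with MK-8722 and 155 to 169 CPM with torin1, and Insr at 33.9 to 37.1, 41.1 to 44.7 and 48.6 to 58.9 CPM. Igf1r (0.08, 95% interval -0.06 to 0.21), Foxo4 (-0.07, 95% interval -0.17 to 0.02) and Erbb3 (0.10, 95% interval -0.20 to 0.40) were not called.

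**Figure D3:**
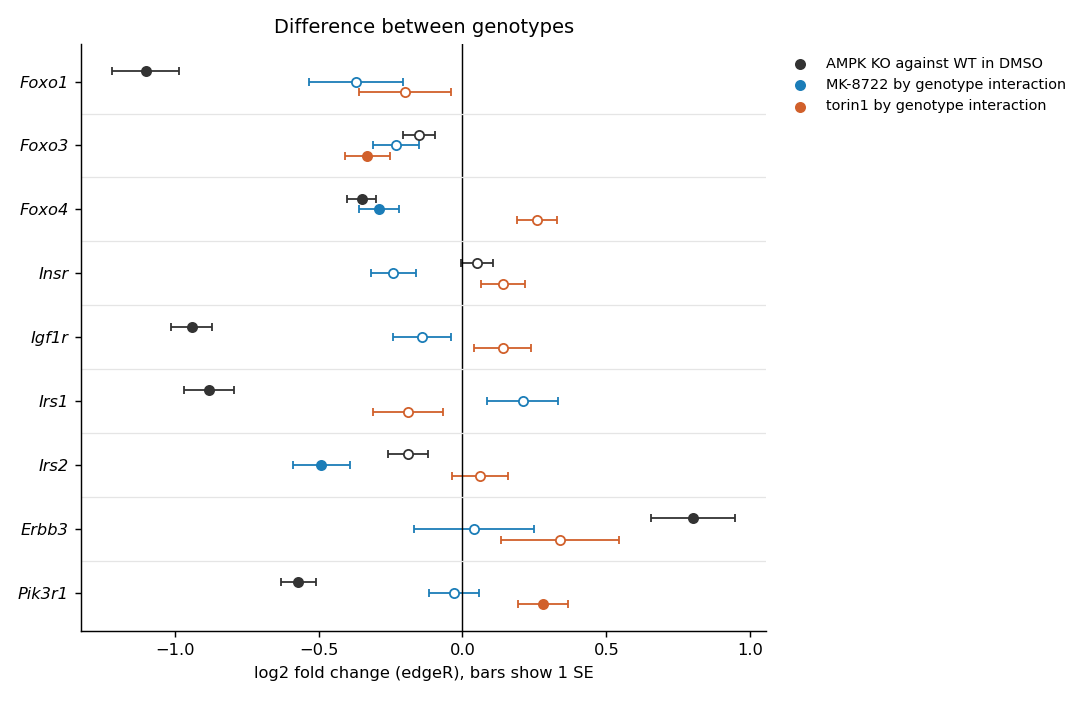
Log2 fold change (horizontal axis, edgeR, bars show 1 SE) of AMPK KO against WT in DMSO, and the genotype interaction for both drugs, for each gene. Filled points were called. Foxo1, Igf1r, Irs1 and Pik3r1 lie furthest to the left in DMSO, from -1.10 to -0.57, and Erbb3 alone lies clearly to the right, at 0.80.

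Without drug, the libraries labelled AMPK KO differed from WT in 6 of the 9 genes, against 56.9% of all genes, with 5 lower and Erbb3 higher, and a median of -0.35 beside 0.02 for all genes. Foxo1 was lower by 1.10 on the log2 scale (log2 fold change -1.10, edgeR SE 0.116, adjusted p = 8.9e-09), Igf1r was at 86.3, 78.4, 75.8 and 80.9 CPM (-0.94, SE 0.071, adjusted p = 2.9e-11) and Irs1 at 46.2, 50.4, 45.2 and 44.4 CPM (-0.88, SE 0.0876, adjusted p = 3.9e-09). For each of these, all 4 AMPK KO libraries lay below all 4 WT libraries. Pik3r1 (-0.57, edgeR adjusted p = 1.1e-08) and Foxo4 (-0.35, adjusted p = 1.1e-06) were lower too, the latter at -0.21 and without the call when libraries were scaled by their totals alone, and at -0.71 after the offset for GC content and length. Insr did not pass the test, with a difference of 0.05 (95% interval -0.06 to 0.15), and Foxo3 (-0.15, adjusted p = 0.022) and Irs2 (-0.19, adjusted p = 0.021) differed by less than the fold threshold. Both passed it after the offset for GC content and length, at -0.45 and -0.52, and Irs2 did so without WT DMSO replicate 3 (-0.27). Under the other settings the differences came as near to zero as -0.01 for Foxo3 and -0.05 for Irs2. Without AMPK KO DMSO replicate 4, Irs2 was at -0.15 and did not pass the test (edgeR adjusted p = 0.088). The median of all genes in this comparison was 0.02, and 0.15 with scaling by totals alone and -0.15 after the offset for GC content and length.

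Erbb3 was higher in the AMPK KO libraries, with a log2 fold change of 0.80 (edgeR SE 0.146, adjusted p = 3.5e-05) and no overlap with WT. Markers of epithelial cells, which use this receptor, moved the same way in sum: it was 1.15 to 2.05 CPM in WT DMSO and 3.04 to 4.55 CPM in AMPK KO DMSO, with 0 and 2 of 5 markers averaging at least 1 CPM and Krt5 without a count in either group. Of the same list, Krt14 and Cldn4 reached at most 0.181 and 0.0665 CPM in any library. Markers of Schwann cells and melanocytes, where Erbb3 is abundant, summed to 0.785 to 1.17 CPM and 0.939 to 1.2 CPM, with 0 of 5 at that level and Dct and Tyr without a count. Fibroblast markers went the other way, at 12505 to 17365 CPM in WT DMSO and 5707 to 6387 CPM in AMPK KO DMSO, with 9 and 8 of 9 averaging at least 1 CPM and none without a count. Endothelial markers were higher in AMPK KO DMSO too (0.105 to 0.219 and 0.589 to 0.87 CPM), as were skeletal muscle (0.722 to 0.805 and 1.38 to 1.9 CPM) and hepatocyte markers (0 to 0.072 and 0.122 to 0.229 CPM). Leukocyte (1.79 to 2.41 and 1.16 to 1.94 CPM) and adipocyte sums (0.157 to 0.841 and 0.06 to 0.425 CPM) overlapped. The part of all these lists in the genotype differences was not tested.

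Ordered over the 6 groups, the genes fell into distinct patterns. For Foxo1, Igf1r and Irs1 every WT group averaged above every AMPK KO group, and the step from the lowest WT group to AMPK KO with torin1 was free of overlap. Foxo3, Irs2 and Insr had both torin1 groups on top, which overlapped each other for Irs2 and Insr and not for Foxo3. Below these, the other WT groups averaged above the other AMPK KO groups for Foxo3 and Irs2, with overlap between genotypes. Foxo4 averaged highest in WT with MK-8722 (41.2 CPM) and lowest in AMPK KO with MK-8722 (26.4 CPM). Erbb3 had all 3 AMPK KO groups above all WT groups, and its WT groups overlapped throughout. Pik3r1 was highest in WT DMSO and lowest in AMPK KO with torin1, at 15.5, 15.9, 15.4 and 14.4 CPM.

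Levels of different genes were compared per length, in TPM, transcripts scaled to a common total and corrected for length. In WT DMSO, Igf1r stood first at 22.6 ± 0.775 TPM (SD, n = 4), then Foxo4 at 20.6 ± 0.557, Irs2 at 17.9 ± 1.76 and Foxo3 at 15.9 ± 1.09 TPM, with Foxo1 at 6.67 ± 1.24 and Erbb3 at 1.8 ± 0.34 TPM at the end. Irs2 and Foxo3 overlapped in this order, as did Foxo3 and Irs1 (13.9 ± 0.504 TPM) and Insr (7.14 ± 0.806 TPM) and Foxo1. With torin1 the order in WT was led by Irs2 at 40.5 ± 1.84 TPM and Foxo3 at 40.3 ± 2.86 TPM, which overlapped. Under torin1 in AMPK KO cells Irs2 was at 39.8 ± 3.75 TPM and Foxo3 at 30.5 ± 2.23 TPM, without overlap. Among the FOXO genes Foxo4 was thus the most abundant per length in WT DMSO and Foxo3 under torin1.

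Each gene was counted mainly from 1 annotated transcript, whose mean share of the gene's count was 88.9% for its 6848-base transcript in Foxo3, 92.9% in Foxo4, 93.9% in Pik3r1, 95.8% in Insr, 98.3% in Igf1r and 100% in Foxo1, Irs1, Irs2 and Erbb3, which have 1 annotated transcript. No gene had a second transcript with a mean share of 10%, so no change of transcript was tested at that level. With transcripts from a share of 5%, Foxo3 and Pik3r1 gave 20 tests, with a smallest adjusted p of 0.29 (exact permutation test, two-sided, 4 against 4). The smallest p this test allows is 0.029, so that no single transcript could pass after adjustment, and these tests do not show that shares stayed the same. In shares of TPM, which weight short transcripts more, 45 tests had a smallest adjusted p of 0.43, and a 672-base transcript of Insr took 10% ± 6.91 (SD, n = 4) of the gene's TPM with DMSO and 23.5% ± 3.1 with torin1 in WT (exact permutation p = 0.029, adjusted p = 0.43). This transcript held a mean of 1.37% of the gene's count (0 to 2.79%). In AMPK KO its share of TPM was 18.5% ± 6.37 with DMSO and 18.9% ± 3.83 with torin1 (exact permutation p = 0.91). A second Foxo3 transcript, of 2889 bases, took 9.21% ± 1.66 (SD, n = 4) of the count in WT DMSO and 7.67% ± 1.48 with torin1 (exact permutation p = 0.2). Exons of Foxo1, Irs1 and Irs2 overlap an annotated gene on the other strand, whose mean counts of 1.29, 2.79 and 1.58 a library are small beside those of 1080, 2221 and 3143.

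Across the 24 libraries, with each genotype's mean removed, Foxo1 and Foxo3 varied together (Pearson r of log2 CPM 0.94), as did Insr and Irs2 (r = 0.95) and Foxo3 and Irs2 (r = 0.91), while Pik3r1 ran against Foxo3 (r = -0.92). Irs1 and Foxo4 were nearly unrelated (r = 0.10), and the highest r of Erbb3 was 0.58, with Foxo4. Among tested genes of at least 5 CPM, passing over gene models and pseudogenes, the 2 most like each were Dhx40 and Tubgcp2 for Foxo3, Scaper and Stil for Irs2, Cdk5rap2 and Abca5 for Insr, and Vcp and Tmem50b for Pik3r1, all with r = 0.98. Foxo1 was nearest to Sema6c (r = 0.96) and Yipf3 (0.95), Igf1r to Asap1 (0.95) and Utrn (0.93), Foxo4 to Rad21 and Syf2 (0.93 each), Irs1 to Zfp566 (0.89) and Lamb1 (0.88), and Erbb3 to Specc1l (0.81) and Ralgps1 (0.79). These values describe libraries that share drug, depth and scaling, and are given without a test.

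Other genes of insulin and PI3K signalling moved in both directions. Of 42 listed, 38 were tested, and torin1 in WT raised 6 and lowered 12, with 47.4% called against 47.6% of all genes and a median of -0.01 against 0.04. The kinase Akt1 fell from 449 ± 15.9 to 246 ± 19.4 CPM (SD, n = 4; log2 fold change -0.87, edgeR adjusted p = 1.5e-11). Pik3r3, another PI3K regulatory subunit, fell from 21.2 ± 3.48 to 5.63 ± 1.09 CPM (-1.91, adjusted p = 1.3e-11), in the direction of Pik3r1. The phosphoinositide phosphatase Inpp5k rose from 13.9 ± 1.02 to 27.1 ± 1.55 CPM (0.97, adjusted p = 5.7e-10) and Igf2r, which clears insulin-like growth factor 2, from 208 ± 12.3 to 297 ± 29.2 CPM (0.52). In AMPK KO cells torin1 raised 9 and lowered 11 of the 38 (52.6% called against 43.5%), with Inpp5k at 1.05 and Igf2r at 0.67 on the log2 scale among the higher and Pik3r3 at -1.04 and Grb10, an adaptor that restrains both receptors, at -1.02 among the lower.

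MK-8722 in WT raised 2 and lowered 4 of these 38 genes (15.8% called against 15.7%), among them Igf2r (log2 fold change 0.52), Gab2 (0.47), Pik3r3 (-0.78) and Igfbp6 (-0.84), and in AMPK KO cells it raised Grb10 (0.43, with overlapping groups) and lowered Pik3r3 (-0.50) and Gab1 (-0.31), which is 7.89% called against 1.56%. Between genotypes in DMSO 7 were higher and 14 lower in AMPK KO (55.3% called against 56.9%). Grb10 averaged 664 ± 36.5 CPM in WT DMSO against 174 ± 31.4 CPM in AMPK KO DMSO (-1.93, edgeR adjusted p = 1.3e-14) and the growth factor Igf2 at 14.8 ± 2.59 and 1.22 ± 0.969 CPM (-3.58), whereas Pik3r3 (1.12) and Igfbp6 (3.02) were higher.

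Genes known as direct FOXO targets were called more often than all genes with each drug, but not between genotypes in DMSO. The list holds both genes FOXO factors activate and the cyclins they repress, and it was chosen with earlier results of these data known. With torin1 in WT 13 of 30 tested rose and 9 fell, 73.3% against 47.6% of all genes, with a median of 0.17 against 0.04. Fbxo32, a muscle atrophy ubiquitin ligase subunit, rose from 12.4 ± 0.552 to 37.1 ± 4.66 CPM (log2 fold change 1.58, edgeR adjusted p = 1.7e-12) and Pdk4, which shuts down pyruvate oxidation, from 3 ± 0.341 to 9.32 ± 0.598 CPM (1.64, adjusted p = 2.1e-11). The cyclin Ccnd2 fell from 490 ± 45 to 92.2 ± 4.74 CPM (-2.41, adjusted p = 4.8e-17) and the growth arrest gene Gadd45a, a gene FOXO3 is known to activate, fell too (-1.46). In AMPK KO cells torin1 raised 11 and lowered 7 of the 30 (60% called against 43.5%), with Ccng2 (1.55) and Fbxo32 (1.53) up and Ccnd2 (-2.44) and Tsc22d3 (-1.32) down.

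MK-8722 in WT raised 5 and lowered 9 of the 30 FOXO targets (46.7% called against 15.7% of all genes), with the autophagy genes Map1lc3b (0.51, edgeR adjusted p = 5.6e-08) and Gabarapl1 (0.50) among the higher and Tsc22d3 (18.8 ± 1.82 to 9.46 ± 2.4 CPM) and Ccnd1 (-0.66) among the lower. In AMPK KO cells it raised 3 and lowered 6 (30% called against 1.56% of all genes), among them Tsc22d3 (0.54) and Gadd45a (0.62, with overlapping groups) up and Ccng2 (-0.82) and Pdk4 (-0.42, with overlapping groups) down. In DMSO 5 were higher and 10 lower in AMPK KO (50% called against 56.9%), with Pdk4 (2.03) and Fbxo32 (1.13) higher and Ccnd2 (-1.52) and Ulk2 (-0.88) lower.

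Regulators of FOXO proteins were tested for 30 of 31 genes. Torin1 in WT raised 5 and lowered 15, 66.7% called against 47.6% of all genes, with a median of -0.33 against 0.04. The 14-3-3 genes Ywhaz, at 928 ± 44.5 CPM with DMSO and 508 ± 17.5 with torin1 (log2 fold change -0.87, edgeR adjusted p = 2.0e-12), and Ywhag (-0.82) fell, while Foxk1 (0.93), a related forkhead repressor, and Sgk1 (0.91), a kinase that phosphorylates FOXO3, rose. In AMPK KO cells torin1 raised 4 and lowered 11 (50% called against 43.5%), with Foxk1 (0.77) and Sirt3 (0.60) higher and Ywhag and Ywhaz lower (-0.66 each). MK-8722 called 3 in WT, 10% against 15.7% of all genes, among them the deacetylase Sirt2, which rose from 50.8 ± 1.89 to 75 ± 2.61 CPM (0.56, edgeR adjusted p = 3.0e-09), and Ywhaq (-0.27). It called 0 in AMPK KO, against 1.56% of all genes. There 5 of the 30 had an unadjusted p below 0.05 in edgeR, as had 2610 of all 15828 genes. DESeq2 called 1 lower, and 2.3% of all genes in either direction. Sirt2 (0.64) and Ep300 (0.52) were among the 10 higher in AMPK KO in DMSO, and Sgk1 (-1.50) and Ywhah (-0.81) among the 6 lower, with 53.3% of the list called against 56.9% of all genes.

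Other receptor tyrosine kinases, with a few ligands and inhibitors, were called about as often as all genes with torin1. In WT it raised 12 of 28 tested and lowered 3 (53.6% called against 47.6% of all genes, median 0.24 against 0.04), and in AMPK KO it raised 9 and lowered 3 (42.9% against 43.5%, median 0.12 against 0.06). Egfr rose from 15.3 ± 2.1 to 39.5 ± 7.58 CPM in WT (log2 fold change 1.37, edgeR adjusted p = 5.6e-10) and by 0.86 in AMPK KO, Nrg1, a ligand of ERBB3, by 0.76 in WT, and Fgfr1 by 0.64 in AMPK KO. The collagen receptor Ddr2 fell in both (-0.76 and -0.74), Flt1 fell in WT (-0.36, with overlapping groups) and Fgfr3 in AMPK KO (-0.35). MK-8722 in WT raised 5 and lowered 2 (25% called against 15.7%), Fgfr2 (0.99, edgeR adjusted p = 2.8e-08) and Fgfr3 (0.49, with overlapping groups) being among the higher and Errfi1 (-0.62) and Ephb2 (-0.44) the lower, and in AMPK KO Fgfr2 fell (-0.72), the 1 gene called there (3.57% against 1.56%). Of the 28, 9 were higher and 13 lower in AMPK KO in DMSO (78.6% called against 56.9% of all genes), with Flt4 (3.47) and Egfr (1.36) up and Fgfr2 (-3.32) and Ror2 (-1.20) down.

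**Figure D4:**
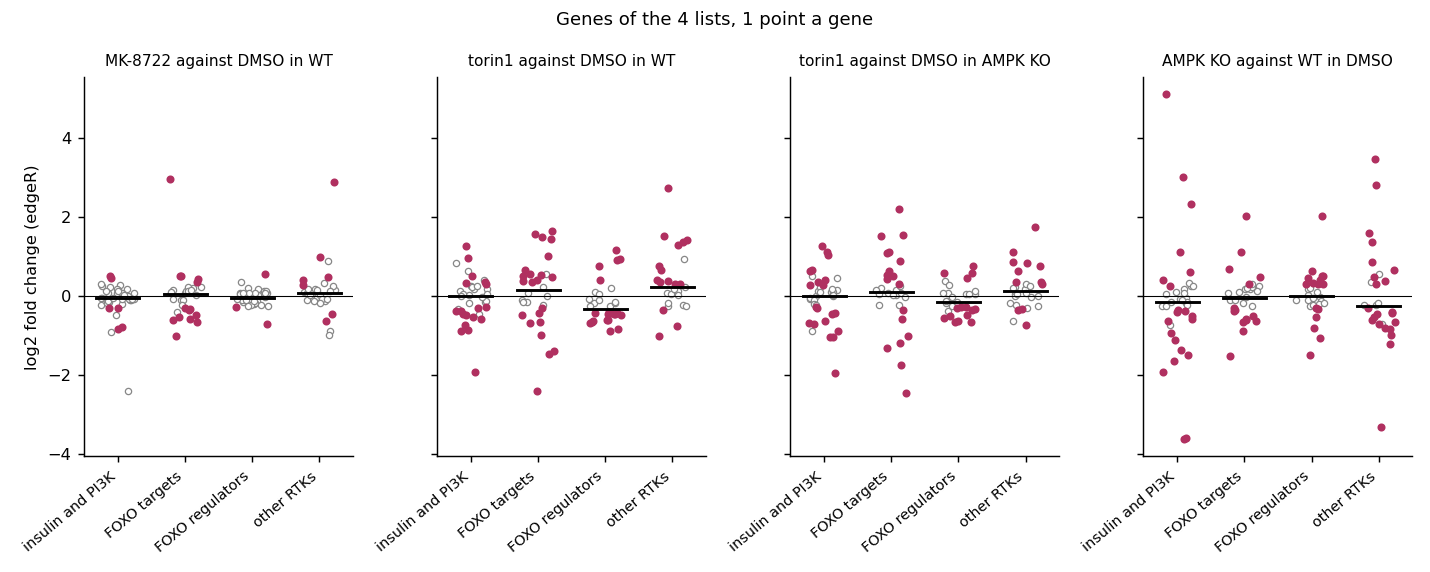
Log2 fold change (vertical axis, edgeR) of every tested gene of the 4 lists in 4 comparisons, 1 point a gene. Filled points were called, open points were not, and the black bar is the median of the list. With torin1 in WT the median is -0.33 for FOXO regulators and 0.24 for other receptor tyrosine kinases.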

How the data were processed

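Poly(A) RNA of 24 MEF libraries was sequenced as paired ends. The authors aligned the reads with STAR and quantified them with Salmon on GRCm38 in the nf-core/rnaseq pipeline (versions of STAR and Salmon are not given in the sources used here), and deposited estimated counts per gene and transcript, and TPM values, which the authors scaled to a common total with a correction for length. Estimated counts were rounded, 15828 of 55487 genes passed edgeR's filterByExpr, and 6 group means were fitted to all 24 libraries with TMM scaling and edgeR 4.0.16's quasi-likelihood test in R 4.3.3. DESeq2 1.42.0 and other settings were alternatives. CPM divides a rounded count by the library's TMM-scaled total. Intervals of 95% are the estimate ± 1.96 SE. Depth of 26900240 to 34192685 counts limits Erbb3 most.

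The 9 genes and the lists were chosen with earlier results of these data known. List genes were named by a rule: in each comparison, the 2 called genes that rose most and the 2 that fell most, among genes of at least 5 CPM over all libraries. Promoters came from RefSeq. The fits were also run on simulated counts with the same spread for every gene, few changed genes and no passage structure. That run does not test how the fits handle passage or the scaling of these data.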

Additional observations from a re-analysis of the deposited data

Results flagged for a closer look

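Among the 54 sets of 4 libraries, 1 for each gene and group, 6 held a library whose gap to the nearest other, over the whole range, was above Dixon's 95% critical value, which chance gives in about 1 set in 20. Foxo1 in AMPK KO with MK-8722 was at 16.8 CPM in replicate 2 and at 13.5 to 13.7 CPM in the others. Insr in AMPK KO with torin1 was at 58.4 CPM in replicate 2 and at 62.5 to 63.1 CPM in the others. Irs2 in AMPK KO with DMSO was at 60.5 CPM in replicate 4 and at 68.1 to 69.1 CPM in the others. The other 3 are all WT torin1 replicate 4: Irs1 at 144 CPM against 103 to 109, Irs2 at 169 CPM against 155 to 157, and Pik3r1 at 19.4 CPM against 18.5 to 18.6. Without that library the log2 fold change with torin1 in WT was 0.29 for Irs1, 1.03 for Irs2 and -0.93 for Pik3r1, and each stayed called.

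The response to a drug differed between genotypes by the interaction test for 4 results. For MK-8722 these were Irs2 (-0.49) and Foxo4 (-0.29), and for torin1 Foxo3 (-0.33) and Pik3r1 (0.28).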

How the results depend on the processing

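With 1 library left out at a time, 654 of the results kept direction and call, 28 lost a call, 12 gained one and 26 turned direction. Under the other settings these numbers were 925, 43, 20 and 11. Leaving out a library also changed which genes were tested, 16001 to 16084 in the 24 fits, and the reference of the scaling, and which of these moved a call was not tested. All 24 fits used all remaining groups, and no arm fell to 1 library.

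Of the 9 genes, 2 were called with MK-8722 in WT. There were 5 by adjusted p alone, 0 at a fold change of at least 1.5, 0 in a test against a fold change of 1.2, and 1 each with DESeq2 size factors in edgeR, with no filter, with at least 10 counts in every library, with the offset for GC content and length, and with DESeq2, Insr being the one lost. For MK-8722 in AMPK KO, where 0 were called, there was 1 by adjusted p alone, 1 with an offset for transcript length and 1 with passage as a block. Torin1 in AMPK KO gave 5 at a fold change of 1.5 and 5 with the offset for GC content and length, against 8. With torin1 in WT, Igf1r and Irs1 lost their calls at a fold change of 1.5 (0.29 and 0.43). The same 2 genes lost them with that offset (0.11 and 0.26). Between genotypes, Foxo4 (-0.35) and Pik3r1 (-0.57) lost theirs at a fold change of 1.5. The MK-8722 interaction gave 4 by adjusted p alone, 0 at a fold change of 1.5 and 0 in the test against 1.2, against 2. The torin1 interaction, also at 2, gave 0 at a fold change of 1.5, 0 in the test against 1.2, and 1 each with DESeq2 size factors, library size alone, no filter, at least 10 counts in every library, the offset for transcript length, the compared libraries alone and DESeq2. Without 1 library the counts were 1 to 2 for MK-8722 in WT, 0 to 1 in AMPK KO, 6 to 7 for torin1 in WT, 6 to 8 in AMPK KO, 6 to 7 for AMPK KO against WT, 6 to 6 for torin1 against MK-8722, and 1 to 3 for each interaction. The causes were not tested. Over all genes, a fold change of 1.5 left 833 of 2483 calls for MK-8722 in WT, 64 of 247 in AMPK KO, 3855 of 7540 for torin1 in WT, 3146 of 6879 in AMPK KO and 5541 of 9007 between genotypes. It left 4.3% of all genes called in the MK-8722 interaction and 1.93% in that of torin1. By adjusted p alone 28.1% were called with MK-8722 in WT, 2.67% in AMPK KO and 16.7% in its interaction. The test against 1.2 called 5.33% with MK-8722 in WT, 3.16% in its interaction and 0.638% in that of torin1.

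Results that turned direction were all uncalled. The offset for GC content and length gave -0.04 for Foxo4 and -0.08 for Erbb3 with torin1 in WT, -0.01 for Insr between genotypes, -0.08 for Igf1r in torin1 against MK-8722 and 0.02 for Pik3r1 in the MK-8722 interaction. The offset for transcript length gave -0.08 for Insr with MK-8722 in AMPK KO and -0.15 in the torin1 interaction. No filter gave 0.00 for Insr between genotypes, library size alone 0.02 for Foxo4 in torin1 against MK-8722, and the compared libraries alone -0.01 for Irs2 in the torin1 interaction. Without 1 library, Erbb3 ranged from -0.18 to 0.06 with MK-8722 in WT, -0.08 to 0.05 in AMPK KO, -0.07 to 0.17 in its interaction, -0.08 to 0.14 with torin1 in WT and -0.02 to 0.24 in torin1 against MK-8722. With MK-8722 in WT, Foxo1 ranged from -0.03 to 0.16, Foxo3 from -0.05 to 0.02 and Irs1 from -0.05 to 0.00. Insr ranged from -0.02 to 0.06 between genotypes and -0.01 to 0.05 with MK-8722 in AMPK KO, Irs2 from -0.05 to 0.11 in the torin1 interaction, and Pik3r1 from -0.11 to 0.00 in the MK-8722 interaction.

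Libraries of 1 genotype at the same passage had correlated deviations of -0.01 to 0.37 (median 0.13, 24 pairs), and 18 of 24 libraries were closest to one of the same passage. For the same replicate number the range was -0.2 to 0.25, with 6 of 24. The labels give 1 library of each passage in each group of its genotype but do not name passage as a block, and the main fit left it out. With this block 4.61% of all genes were called with MK-8722 in AMPK KO, against 1.56% in the main fit. With the replicate number as a block the calls were 2 for MK-8722 in WT and 0 in AMPK KO, 7 and 8 for torin1, 6 between genotypes and 2 in each interaction, and Erbb3 with MK-8722 in AMPK KO was at 0.00. With passage as a block they were 2, 1, 7 and 8, and 3 in each interaction, Foxo1 (-0.38) and Erbb3 (0.34) being those gained, and genotypes could not be compared because they share no passage. Calls over all genes rose with this block as well. They were 17.6% in the MK-8722 interaction and 11.8% in the torin1 interaction, against 12.8% and 7.07% in the main fit. For MK-8722 in WT they were 18.4%, and for torin1 49.6% in WT and 45.8% in AMPK KO.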

Other observations

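A few genes of the lists, chosen after their values were seen, differed between the genotypes in their response to MK-8722. Tsc22d3, a leucine zipper gene induced by glucocorticoids and FOXO3, fell from 18.8 ± 1.82 to 9.46 ± 2.4 CPM (SD, n = 4) in WT and rose from 20.5 ± 2.75 to 29.8 ± 3.91 CPM in AMPK KO, with an interaction of 1.54 (SE 0.178, edgeR adjusted p = 1.9e-06). Fgfr2, a fibroblast growth factor receptor, rose in WT (log2 fold change 0.99) and fell in AMPK KO (-0.72), with an interaction of -1.71 (edgeR adjusted p = 3.9e-07). Ccng2, an atypical cyclin of quiescent cells, was at 0.22 in WT, which was not called, and fell in AMPK KO (-0.82), with an interaction of -1.04 (edgeR adjusted p = 4.2e-06).

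Prkaa2 was measured at 4.74 ± 1.12 CPM (SD, n = 4) with DMSO and 7.76 ± 1.29 CPM with MK-8722 in WT (log2 fold change 0.71, edgeR adjusted p = 0.0062).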
